A study of Mus musculus with 2 samples.

Results

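The mRNAs described are those of 10 genes that move calcium across the membrane of the endoplasmic reticulum (ER) or act on the neighbouring pools, chosen as every spot for a transcript whose gene name on the array was Atp2a2, Atp2a3, Atp2b1, Atp2c1, Itpr1, Itpr2, Itpr3, Stim1, Stim2 or Orai1. All 10 were found, among 28080 gene names on the array, with 26 probes in 26 spots, of which 21 probes targeted 11 coding accessions and 5 targeted cDNA clones. The cells were NIH3T3, an established line of mouse fibroblasts, either left untreated (control) or given 10 µM thapsigargin for 3 h (stress), an inhibitor of the Atp2a pumps. RNA bound to polysomes (P) was labelled with Cy3, and free RNA together with monosomes (FM) with Cy5. Each condition was 1 two-colour array of RNA pooled from 3 preparations, so the comparison rests on a single array a side, and no test between the conditions was possible.

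Calcium is kept high in the ER lumen by the Atp2a (SERCA) pumps, which thapsigargin blocks, and leaves it through the Itpr channels, which open on inositol trisphosphate (IP3). When the lumen empties, the sensors Stim1 and Stim2 in the ER membrane bind Orai channels in the plasma membrane, and calcium enters the cell. Atp2b1 pumps calcium out across the plasma membrane and Atp2c1 pumps calcium and manganese into the Golgi. Emptying of the ER also activates the unfolded protein response, in which phosphorylation of eIF2 alpha lowers translation initiation on most mRNAs.

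Each value below rests on a probe of 60 bases, and where a probe lies in its transcript turned out to go with its value. The following are shown because they carry the contrasts between or within genes. The 3 probes of Atp2a2, Atp2b1 and Orai1 nearest the 5′ end are whole, and 30 bases are given of the others. Over its 60 bases, each of these probes other than that of Stim1 leaves at least 1 forward frame free of stop codons. Capitals mark the hexamer AATAAA, the usual polyadenylation signal, which occurs in 4.78% of the 41174 probes of this length. Genome positions are on mm9 (NCBI build 37), from the deposited files, and positions in bases count along the transcript; the limits of coding and untranslated stretches were not used here.
Atp2a2, position 2567, whole probe: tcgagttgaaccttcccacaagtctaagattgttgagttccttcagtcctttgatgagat
Atp2a2, position 3925, first 30 bases: gaaaaagcatgtacagtgttctgtttaata
Atp2a2, position 4073, first 30 bases: gttccacactgtattattgtaacttattta
Atp2b1, position 3028, whole probe: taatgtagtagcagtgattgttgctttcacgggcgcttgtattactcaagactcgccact
Atp2b1, position 6299, first 30 bases: ttttggttatgcttaaatatgaatgtaatt
Itpr1, position 9786, first 30 bases: aaactgaaccgtatgcagagttccgaagca
Itpr3, position 8923, last 30 bases: ttaattgccttaAATAAAttaatagactcc
Stim1, position 3325, first 30 bases: ggaggatgagtagatgccaaagctgtgggc
Orai1, position 730, whole probe: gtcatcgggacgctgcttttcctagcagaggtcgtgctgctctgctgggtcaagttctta
The Atp2a2 probes lie on the minus strand at chr5:122910660-122910719, chr5:122906850-122906909 and chr5:122903704-122903763. The probes at 2567 and 4073 are annotated to accession NM_009722 (transcript variant 2) and that at 3925 to NM_001110140 (transcript variant 1). The Atp2b1 probes lie on the plus strand at chr10:98477236-98477528 and chr10:98487947-98488006. The first of them covers 293 genomic bases with 60 letters and so crosses an intron. The Itpr1 probe is at chr6:108501020-108501079, the Itpr3 probe at chr17:27259102-27259161, the Stim1 probe at chr7:109585091-109585150 and the Orai1 probe at chr5:123479321-123479380, all on the plus strand.

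The translation efficiency of a probe is given as log2 P/FM, its P signal over its FM signal on the log2 scale, and its abundance as the A value, which averages log2 P and log2 FM. Of the 26 probes, 18 had A above 4.5 on both arrays, and every one of the 18 was well above background in both channels and unsaturated on both arrays. Each gene had at least 1 of these, and Atp2a3, Itpr3, Stim1 and Orai1 had exactly 1. On the whole array 17173 of 41141 probes passed. Between different probes of one coding accession the median standard deviation (SD) of the change in log2 P/FM was 0.32 over 3438 accessions, and between the spots of one probe it was 0.10 over 110 probes with 8 or more spots. These spreads cover array error and probe placement, not the spread between preparations. They are given to show how far probes differ, and they do not stand in for the missing replicates. In bulk RNA, fewer cells of a type and less RNA per cell cannot be told apart.

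In control cells most of the 18 probes lay below the median of all probes in log2 P/FM, and upon stress most lay above it. The median log2 P/FM of the 18 probes was -0.29 in control cells, against 0.22 over all probes, and 0.41 in stressed cells, against -0.29 over all probes. The median change was 0.52 over the 18 probes and -0.61 over all probes. Both medians moved with the scaling of the arrays: with the arrays scaled to the spike-in probes, whose own median log2 P/FM was -0.40 in the control and -2.95 in the stress hybridisation, they were 3.07 and 1.94, and with each array centred on its median they were 1.03 and -0.10. The gap between them was 1.13, which such shifts of a whole array cannot alter, and changes are therefore also given relative to the median of all probes. The paper states that P and FM RNA were labelled in the proportions found in the gradients, with more RNA in P in control cells and more in FM upon stress. How much of that difference spike-in scaling removes was not tested. The gap between the medians did depend on the processing. It was 0.62 with normexp (offset 50) on the reported probes, where the set of probes was kept. It was 0.12 with normexp (0.51 against 0.39) and 0.31 without background subtraction. In these 2 settings all 41141 probes passed the filter, 26 of them calcium probes, so the probe set changed as well. Changes given below as relative to the median with normexp use that median of 0.39, against 0.0402 on the reported probes.

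By the thresholds of the study, 8 of the 18 probes (44.4%), from 4 genes, were inducible, meaning at or below 0 in control cells with a change of 1 or more, against a background of 12.7% of all probes. The 4 genes were Atp2a2, Atp2b1, Itpr1 and Itpr2. Among all coding probes at base 3000 or beyond, where 14 of the 18 lay, 28.0% were inducible. Sensitive probes, with a change of -0.8 or lower, numbered 4 of 18 (22.2%), against 44.4% of all probes, and were 1 probe each of Atp2a3, Atp2c1, Stim1 and Orai1. No probe was resistant (0.8 or more on both arrays), against 3.32% of all probes. The change was above 0 for 12 of 18 probes (66.7%), against 33.8% of all probes. With normexp background correction sensitive probes numbered 1, and with spike-in scaling 0 were sensitive and 5 resistant.

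**Figure D1:**
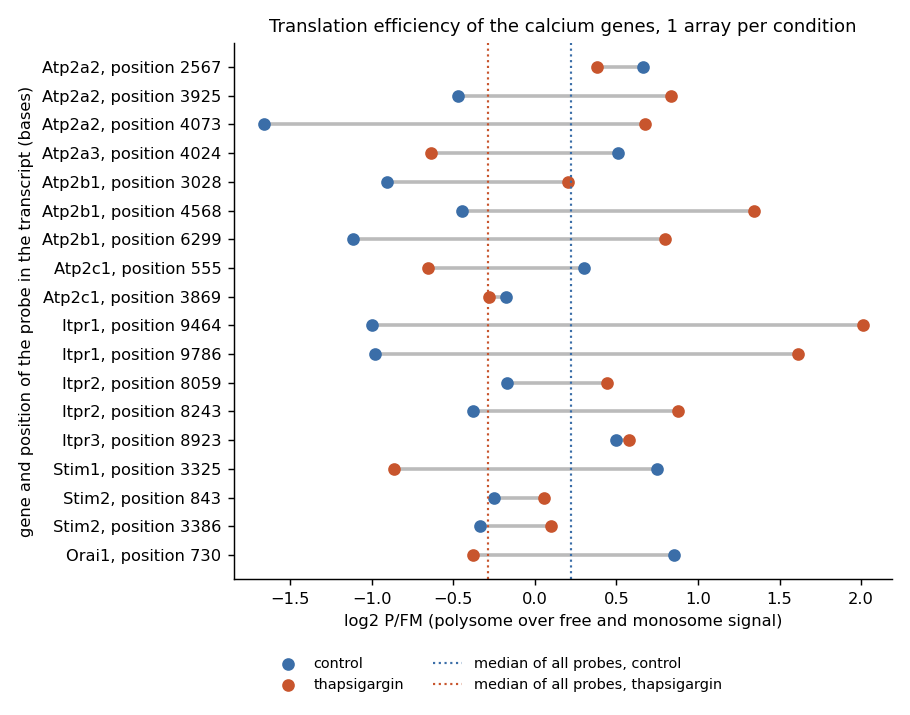
log2 P/FM of the 18 probes above the filter (horizontal axis) in control (blue) and thapsigargin-treated cells (orange), 1 array each, by gene and probe position in bases; dotted lines are the medians of all probes. Both Itpr1 probes went from about -1 to 2.01 and 1.62, while Stim1 went from 0.75 to -0.87, a fall that turned into a rise of 0.93 when the arrays were scaled to spike-in probes.

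Atp2a2 encodes SERCA2, the widely expressed member of the pump family that thapsigargin inhibits. Its 3 probes above the filter differed on the control array and were close to each other on the stress array. At position 2567 log2 P/FM was 0.66 in control cells and 0.38 upon stress. At position 3925 it was -0.47 in control cells and 0.83 upon stress, and at position 4073 it was -1.66 and 0.67. The changes were thus -0.28, 1.31 and 2.33, with a mean of 1.12 ± 1.32 (SD over 3 probes), which is about as large as its SD. The SD over the 3 probes was 1.16 in control cells and 0.23 upon stress. The change at position 2567 became 0.64 with normexp and 0.23 with centred arrays, and those at 3925 and 4073 were above 0 under each alternative that gave them a value.

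The signals show where these changes lay. At position 4073 the P signal went from 90.6 to 414, 4.57 times the control, while the FM signal was 286 and 259.7. At position 3925 the P signals were 331 and 1318 and the FM signals 459.9 and 739. At position 2567 the P signals were 58.6 and 110.0 and the FM signals 37.1 and 84.6, so both fractions rose there, by 1.88 and 2.28 times. A rose by 1.05, 1.34 and 1.03 at the 3 positions, a mean of 1.14 ± 0.17 (SD over 3 probes), against a median of 0.37 over all probes. The abundance change was thus alike at all 3 positions, and the change in log2 P/FM was not. The probe for cDNA clone AK080543 was too dim on both arrays to be well above background.

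Atp2a3 encodes SERCA3, known mainly from blood, endothelial and epithelial cells. Its single probe above the filter, at position 4024 of NM_016745, had log2 P/FM of 0.51 in control cells and -0.64 upon stress. The P signal was 71.2 in control cells and 48.7 in stressed cells, and the FM signal 49.97 and 75.8. The change of -1.15 passed the threshold for sensitive mRNAs but was 0.04 with normexp background correction and 1.40 with spike-in scaling. A changed by 0.03. The Atp2a genes thus moved in opposite directions in log2 P/FM at their probes near base 4000, by 2.33 for Atp2a2 and -1.15 for Atp2a3, under each alternative that gave both values other than spike-in scaling and normexp, which made the Atp2a3 change positive.

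Atp2b1 encodes PMCA1, the housekeeping calcium pump of the plasma membrane. All 3 of its probes on NM_026482 above the filter were inducible. At position 3028 log2 P/FM was -0.91 in control cells and 0.20 upon stress. At position 4568 it was -0.45 and 1.35, with P signals of 150.2 and 639 and FM signals of 205 and 252. At position 6299 it was -1.12 and 0.80. The mean change was 1.61 ± 0.43 (SD over 3 probes). Relative to the median of all probes it was 2.22, or 0.54 with normexp, where the probe for a cDNA clone also entered the mean. With normexp on the reported probes the Atp2b1 change was 1.16, against a median of 0.0402. The P signal rose at each position, by 2.21, 4.25 and 3.01 times, and the FM signal was 1.02, 1.23 and 0.80 times that of control. Over all probes the median changes in the P and FM signals were 0.07 and 0.67 on the log2 scale. Under the alternatives the mean change stayed between 0.93 and 4.16.

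The probe for cDNA clone AK053569, also named Atp2b1, behaved otherwise. Its FM signal was well above background on both arrays, at 87.7 in control cells and 32.8 upon stress, and its P signal on neither. Its log2 P/FM was therefore at most -3.20 in control cells and at most -1.56 in stressed cells, with the lowest P signal well above background, or the P signal of the probe where that was higher, as the bound. In the control cells FM was thus at least 9.17-fold higher than P. The clone probe was below the filter on the stress array and entered no count or mean as reported.

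Atp2c1 encodes SPCA1, the calcium and manganese pump of the Golgi. Its 2 probes above the filter differed. At position 555 of NM_175025 log2 P/FM was 0.30 in control cells and -0.66 upon stress, a change of -0.96 that passed the threshold for sensitive mRNAs, and 1.59 with spike-in scaling. At position 3869 it was -0.18 and -0.28, a change of -0.10. The mean change of -0.53 ± 0.61 (SD over 2 probes) is smaller than its SD and lies within 0.08 of the median of all probes. It turned positive with normexp and with spike-in scaling. It was also positive without background subtraction and with the processed signals of the scanner software, where probes below the filter as reported entered the mean. The 2 reported probes were at -0.50 and -0.03 without background subtraction, and at -1.32 and 0.02 with processed signals. The probe for clone AK032255 was seen only in the FM fraction of control cells, where log2 P/FM was at most -4.0, and neither fraction was well above background in stressed cells. The probe at position 1831 was too dim on both arrays.

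Itpr1 encodes the type 1 IP3 receptor, a very large channel protein best known from Purkinje neurons. It had the highest change among the 10 genes. At position 9464 of NM_010585 log2 P/FM was -0.996 in control cells and 2.01 upon stress. At position 9786 it was -0.98 and 1.62. The changes of 3.00 and 2.60 gave a mean of 2.80 ± 0.29 (SD over 2 probes), and 3.41 relative to the median of all probes, or 1.31 with normexp. With normexp on the reported probes the Itpr1 change was 1.71, against a median of 0.0402.

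At position 9464 the P signal went from 20.8 to 122, 5.88 times the control, while the FM signals were 41.5 and 30.4. At position 9786 the P signal went from 37.5 to 239, 6.37 times the control, while the FM signals were 73.9 and 77.9. A rose by 1.05 and 1.37. Among all probes the 2 changes stood at percentiles 99.5 and 98.7. Among the 228 coding probes placed at base 8000 or beyond, whose median change was itself 1.78, they stood at percentiles 91.2 and 78.1. The mean change of Itpr1 lay between 1.71, with normexp, and 5.35, with spike-in scaling, under the alternatives.

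Itpr2 encodes the type 2 receptor, prominent in heart and secretory tissues. At position 8059 of NM_019923 log2 P/FM was -0.17 in control cells and 0.44 upon stress, and at position 8243 it was -0.38 and 0.88. The mean change was 0.93 ± 0.46 (SD over 2 probes), and only the probe at 8243, with a change of 1.26, passed the threshold for inducible mRNAs. Both fractions rose: at position 8243 the P signal went from 55.9 to 271 and the FM signal from 72.6 to 147. The A value of this probe rose by 1.65, the largest rise of the 18 probes. The other 3 Itpr2 probes, at positions 2592 and 5011 and for clone AK046210, were not well above background. The deposited log2 table, which averages over the dim probes of an accession as well, gave a change of 0.12 for Itpr2.

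Itpr3 encodes the type 3 receptor, common in epithelial cells. Its probe at position 8923 of NM_080553, whose printed letters hold the polyadenylation hexamer, had log2 P/FM of 0.50 in control cells and 0.58 upon stress. The P signal rose from 2293 to 6201 and the FM signal from 1624 to 4162, by 2.70 and 2.56 times. A rose by 1.40 while log2 P/FM changed by 0.08, less than the spread between probes. That near-zero change depended on the processing: it was 1.62 after loess within arrays and 1.57 with the processed signals; loess adjusts the ratio to the signal strength within an array. Relative to the median of all probes it was 0.69, and -0.22 with normexp. With normexp on the reported probes the Itpr3 change was 0.18, against a median of 0.0402. The IP3 receptors thus shared a rise in A of 1.05 or more at each of their 5 probes, and differed in log2 P/FM, with mean changes of 2.80, 0.93 and 0.08 for Itpr1, Itpr2 and Itpr3.

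**Figure D2:**
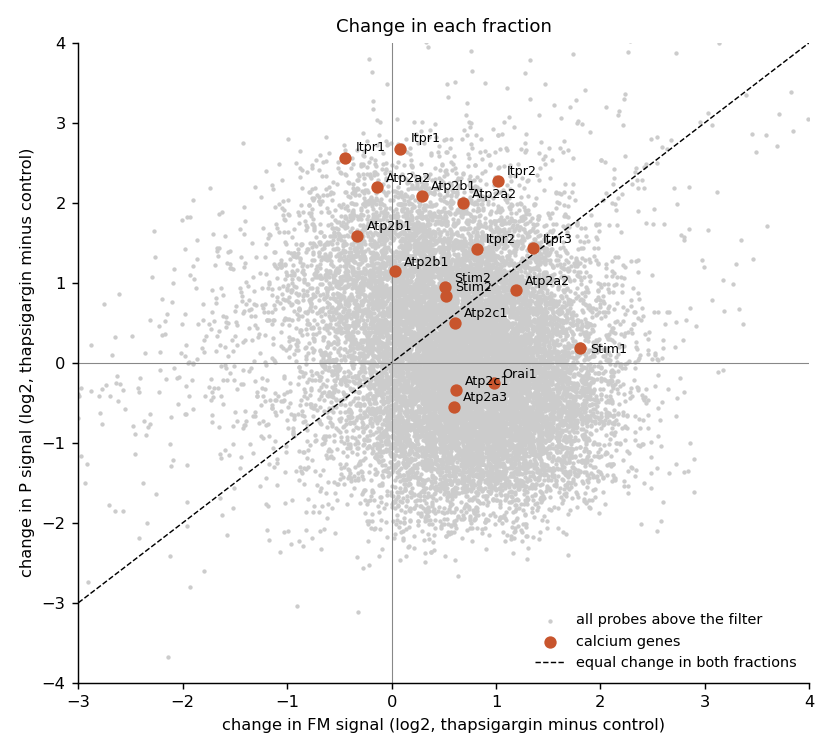
Change in the P signal (vertical) against the change in the FM signal (horizontal), both log2 thapsigargin minus control, for the 18 probes (orange) and all 17173 probes above the filter (grey; 35 lie outside the window); on the dashed line log2 P/FM is unchanged. Itpr1 and Atp2b1 lie high with FM changes near 0, Itpr3 lies on the line, and Stim1 lies far right with a P change near 0.

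Stim1 and Stim2 encode the sensors of luminal calcium, and they moved apart. The Stim1 probe at position 3325 of NM_009287 had log2 P/FM of 0.75 in control cells and -0.87 upon stress, the lowest value of the 10 genes in stress. Its P signal went from 383 to 436 and its FM signal from 228 to 794, which is 1.14 and 3.48 times the control. The change of -1.62 was -1.01 relative to the median of all probes. It was negative under each alternative other than spike-in scaling, where it was 0.93, and A rose by 0.99.

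The 2 Stim2 probes gave similar values although 2543 bases lay between them. At position 843 of NM_001081103, in a probe that spans an intron, log2 P/FM was -0.25 in control cells and 0.06 upon stress. At position 3386 it was -0.34 and 0.10. The mean change was 0.37 ± 0.09 (SD over 2 probes), below the threshold for inducible mRNAs, and 0.98 relative to the median of all probes, which fell to 0.16 with normexp. With normexp on the reported probes the Stim2 change was 0.55, against a median of 0.0402. The P signals rose by 1.78 and 1.93 times and the FM signals by 1.44 and 1.43 times. The probe at 843 stood at percentile 91.2 among the 3710 coding probes placed before base 1000.

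Orai1 encodes the pore of the plasma membrane channel that the Stim proteins open. Its probe at position 730 of NM_175423 had the highest log2 P/FM of the 10 genes in control cells, 0.85, and -0.38 in stressed cells. The P signal went from 228 to 191 and the FM signal from 126 to 248. The change of -1.23 passed the threshold for sensitive mRNAs, was 1.32 with spike-in scaling and negative under each other alternative. It stood at percentile 55.4 of the coding probes placed before base 1000, whose median change was -1.39. A changed by 0.36, close to the median of all probes.

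In control cells the genes ranked, from the lowest mean log2 P/FM, Itpr1 (-0.99), Atp2b1 (-0.82), Atp2a2 (-0.49), Stim2 (-0.29), Itpr2 (-0.27), Atp2c1 (0.06), Itpr3 (0.50), Atp2a3 (0.51), Stim1 (0.75) and Orai1 (0.85). Only the steps from Atp2b1 to Atp2a2, from Itpr2 to Atp2c1 and from Atp2c1 to Itpr3 exceeded the spread between probes, an SD of 0.29 on that array. In stressed cells the order was nearly turned over, from Stim1 (-0.87), Atp2a3 (-0.64), Atp2c1 (-0.47), Orai1 (-0.38), Stim2 (0.08), Itpr3 (0.58), Atp2a2 (0.63), Itpr2 (0.66) and Atp2b1 (0.78) to Itpr1 (1.81). There the steps on both sides of Stim2 and the step from Atp2b1 to Itpr1 exceeded the spread of 0.28. Itpr1 thus had the lowest of the 10 means in control cells, within the spread of Atp2b1, and the highest in stressed cells. Orai1 and Stim1 went from the top to the lowest 4. The control mean of Atp2a2 is over probes from -1.66 to 0.66, with an SD of 1.16, so its place in that order is loose.

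As reported, abundance rose more evenly than translation efficiency, but its median rise turned into a fall with normexp. The change in A was above 0 for every one of the 18 probes, from 0.03 for Atp2a3 to 1.65 for Itpr2, with a median of 1.01 against 0.37 over all probes. It was 1 or more for 9 of 18 probes (50%), from Atp2a2, Atp2b1 and the Itpr genes, against 12.7% of all probes. The P signal was higher upon stress for 15 of 18 probes (83.3%), against 52.5% of all probes, and the FM signal for 15 of 18 (83.3%), against 82.4%. The median change in A became -0.66 with normexp on the same 18 probes, and -1.10 with normexp where all 26 probes passed the filter. It was 0.64 when centred on all probes. No median over all probes is given with normexp, so a fall relative to other mRNAs cannot be read from the normexp values.

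Probe position went with the change in log2 P/FM across the whole array. Among coding probes above the filter the median change was -1.39 for the 3710 placed before base 1000 and -0.98 for those between 1000 and 2000. It was -0.38 between 2000 and 3000, 0.04 up to 4000, 0.50 up to 6000 and 1.24 up to 8000, and reached 1.78 for the 228 placed beyond. The share of inducible probes went from 3.10% in the first bin to 70.6% in the last. The calcium genes were probed far from the 5′ end, and the median position of their probes was 3974.5 bases, against 1803 over all coding probes. Of their 18 probes, 14 lay at base 3000 or beyond, where 8 were inducible and 2 sensitive. Of all 3673 coding probes placed there, 28.0% were inducible and 15.7% sensitive, and the median change was 0.42, against 1.18 for the 14. The part of position, and of transcript length, in the values of the calcium genes was not tested.

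Read against probes at like positions, the genes separated differently. The Atp2a2 probe at 2567 stood at percentile 53.3 of its bin, and those at 3925 and 4073 at percentiles 88.9 and 96.1 of theirs. The Atp2b1 probes stood at 84.9, 89.2 and 77.9. The Itpr2 probes stood at 16.7 and 28.5 and the Itpr3 probe at 10.1, so these were below the median change of 1.78 for probes beyond base 8000. Stim1 and Atp2a3 stood at 5.49 and 6.47.

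Position also went with the change inside a transcript. Among 3438 coding accessions with probes at different positions, the probe nearest the 3′ end had the higher change in 2265 (65.9%), and among 2531 with 500 bases or more between them in 1812 (71.6%), where the median difference was 0.46. Of the 6 calcium genes with more than 1 coding probe, the downstream probe was the higher in all but Itpr1, whose probes lie 322 bases apart. The difference was 2.62 between the outer Atp2a2 probes, on one accession, a size reached by 1.45% of accessions. This share and those below are over accessions with probes at any separation. With 500 bases or more between the probes, the 95th percentile of the difference was 2.05. The difference was 0.81 for Atp2b1, 0.86 for Atp2c1, 0.65 for Itpr2 and 0.13 for Stim2, sizes that 26.7%, 25.0%, 32.2% and 57.0% of accessions reached, and -0.41 for Itpr1.

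**Figure D3:**
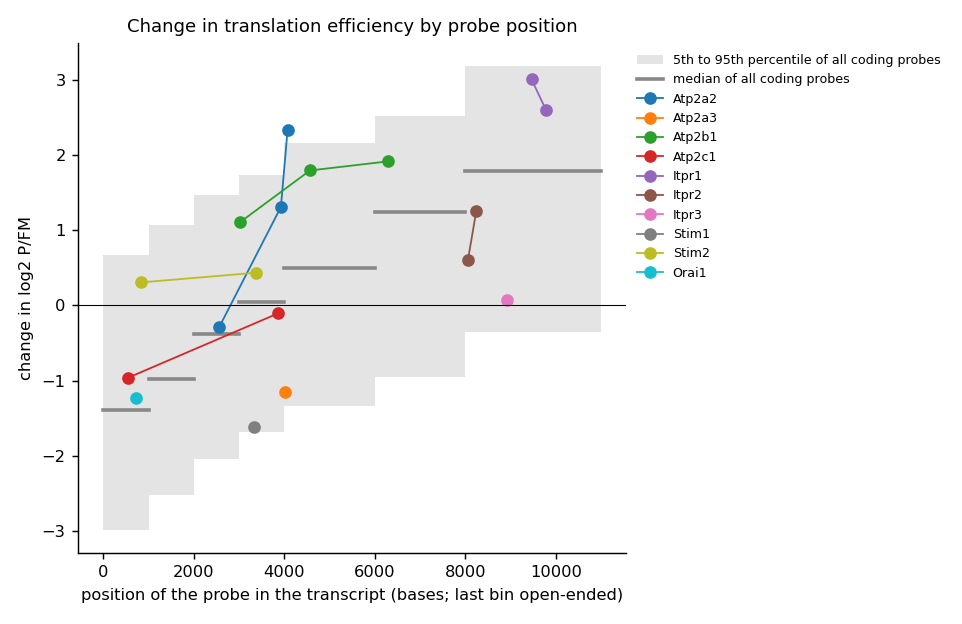
Change in log2 P/FM (vertical) against the position of the probe in the transcript in bases (horizontal) for coding probes of the 10 genes, joined within a gene; grey bars and shading are the median and the 5th to 95th percentiles of all coding probes in each bin. The median of all coding probes climbs from -1.39 to 1.78, Atp2a2 and Atp2b1 lie above it at and beyond base 3000, and Stim1, Atp2a3, Itpr2 and Itpr3 lie below it.

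The GC content of the probe went with the change as well. The median GC content was 38.3% over the 18 probes and 43.3% over all probes, and the median change over all probes went from 0.02 for 3097 probes under 36% GC to -1.22 for 1847 probes of 55% or more. The 4 calcium probes under 36% had a median change of 1.86, each above the median of its bin. Of the 3 of 50% or more, Stim1 at -1.62 was below its bin median of -1.14. Atp2a3 (-1.15 against -1.14) and Orai1 (-1.23 against -1.22) lay at about theirs. The part of GC content was not tested either.

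Other calcium genes of the array were taken from 5 lists, with 81 probes of 50 genes above the filter. Of these, 49 probes were sensitive (60.5%), 2 inducible (2.47%) and 4 resistant (4.94%), against 44.4%, 12.7% and 3.32% of all probes. Among other calcium pumps, channels and exchangers, 14 of 19 probes were sensitive (73.7%) and 1 inducible, with a median change of -1.46 against -0.61 over all probes. These include Orai2 and Orai3, relatives of Orai1, at -0.96 and -2.05, the mitochondrial uniporter Mcu at -1.22 and -1.96 and the outer mitochondrial channel Vdac1 at -1.59 and -1.76. Among partners and regulators of the 10 genes, 10 of 17 probes were sensitive (58.8%) and 0 inducible, with a median change of -1.04. They include Saraf, which switches off Stim1, at -1.04, and Tmem110, a partner of Stim1, at -2.69, -2.57 and -1.60. Others of this list changed less, with Ahcyl1 at -0.61 and -0.63 and Tmbim6 at -0.29 and -0.53, and Cisd2 was at 0.30 and -2.23. The median position of the coding probes was 1600 bases in the first and 1617 in the second of these lists, 1678 for the ER lumen, 3223.5 for phospholipase C and its G proteins, 1629 for calmodulins and 4063.5 for the fibroblast markers, whose median change was -1.01.

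Among calcium-binding proteins of the ER lumen, 8 of 18 probes were sensitive (44.4%, the share of all probes), 2 resistant and 0 inducible, with a median change of -0.55, close to that of all probes. The largest rise in log2 P/FM of any list was that of Hspa5 (BiP), the main ER chaperone, from 1.06 to 2.43, with a rise in A of 1.96. Hsp90b1, the ER member of the HSP90 family, had the largest rises in A, 2.65 and 2.52, with changes in log2 P/FM of 0.03 and -0.04. A rose by 1 or more in 8 of the 18 probes. Among phospholipase C and its G proteins, which make IP3, 5 of 11 probes were sensitive (45.5%, near the share of all probes) and 1 was inducible, with a median change of -0.14. The inducible probe was for a Gnaq clone, at 1.02, while the coding Gnaq probe was at 0.36. Gna11, a second G protein of this pathway, had one of the 3 largest falls, -2.73. Among calmodulins and their kinases 12 of 16 probes were sensitive (75%) and 0 inducible, with a median of -1.18. Calm3, 1 of 3 calmodulin genes, had the largest falls, -2.83 and -2.77. The remaining large rise was that of Pkd2, a calcium-permeable channel of cilia and the ER, at 1.36 for one probe and 0.34 for the other. With spike-in scaling, 2.55 is added to each of these changes, and each list median is then above 0.

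**Figure D4:**
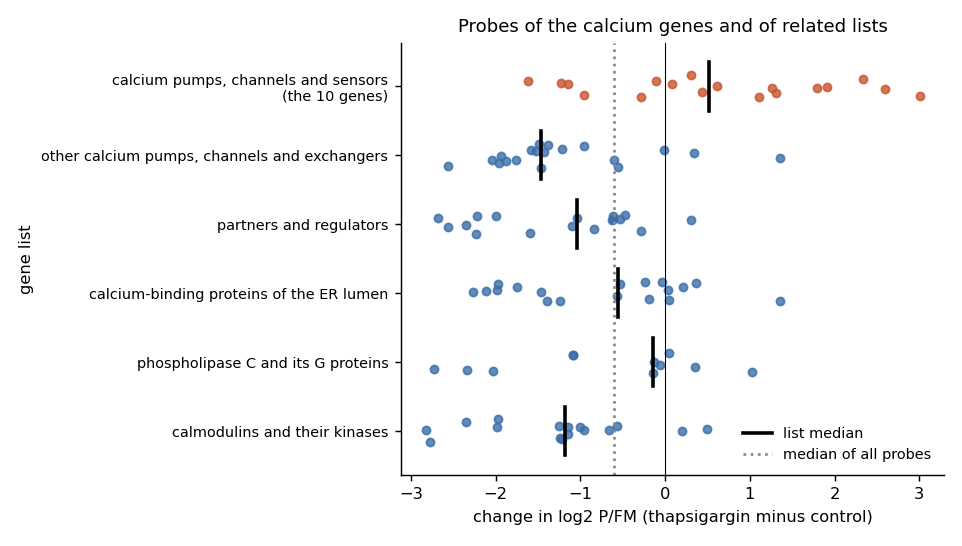
Change in log2 P/FM (horizontal) of each probe above the filter of the 10 calcium genes (orange) and of 5 related lists (blue); black bars are list medians, the dotted line the median of all probes, and the vertical scatter within a list has no meaning. The 10 genes have a median of 0.52, above the 5 list medians of -1.46 to -0.14. The median probe position was 3974.5 bases for the 10 genes and 1600 to 3223.5 for the lists, and its part in this contrast was not tested.

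The genes outside the 10 with values nearest to the mean of the Atp2a2 probes, by the Euclidean distance over 4 values (log2 P/FM and A on both arrays) among 13531 coding probes, included Zcchc2 at a distance of 0.27 and Sema5a at 0.29. Their changes in log2 P/FM were 1.05 and 1.097. As a check of the cell type, each of 7 fibroblast markers was above the filter, with A up to 14.9 in control cells for Col1a2. No probe of the epithelial, endothelial and neuronal markers passed, nor of the leukocyte marker Ptprc, while Cd68, Cd3e and the muscle actin Acta1 each had 1 probe above the filter, with A of 5.60, 6.06 and 9.06 in control cells and 5.71, 5.93 and 9.16 in stressed cells.

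**Figure D5:**
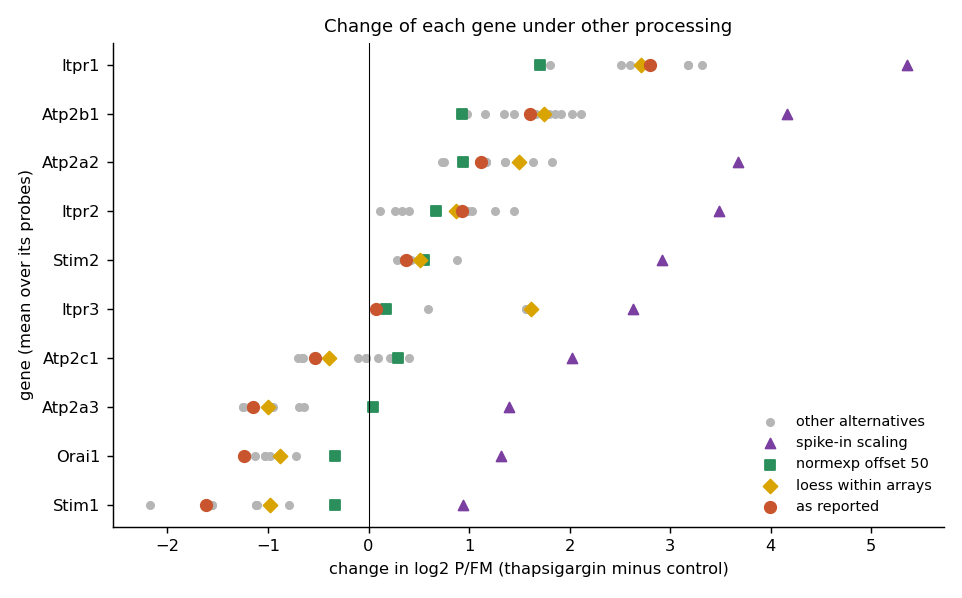
Mean change in log2 P/FM of each gene (horizontal) as reported (orange) and under 18 other ways of processing, with spike-in scaling, normexp and loess marked. Atp2b1, Atp2a2 and Itpr3 lie above 0 under each one and Itpr1, Itpr2 and Stim2 under the 17 that gave them a value (none with A above 7), while Stim1, Orai1, Atp2a3 and Atp2c1 lie above 0 with spike-in scaling. Atp2a3 also does so with normexp, and Atp2c1 under 4 others, some of which average in its probes below the filter as reported.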

How the data were processed

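NIH3T3 cells were profiled on 1 array per condition, from pools of 3 preparations. Both arrays were on 1 slide and in 1 scan, and groups came from the labels. The deposited intensity values were extracted with Agilent Feature Extraction 10.7.1, per the labels, and the spot and background intensity values are not normalized. The deposited files also hold processed intensity values and a log10 ratio, both dye-normalized, and flags scored 0 or 1. The authors also deposited a table of log2 ratios without normalization, an average over the spots of an accession.

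From each mean spot signal the local background (median) was taken off, with a floor of 0.5, as the study did, in R 4.3.3 with limma 3.58.1. No normalization was applied. Spots with an outlier flag in either hybridisation (295, or 0.680%) were dropped, and spots of one probe were averaged. Probes with A above 4.5 on both arrays were kept, a level that none of 153 negative control spots reached. Named are the 10 genes with every probe, and from the lists the 3 largest rises and falls in log2 P/FM and the 3 largest changes in A among probes well above background, with list relatives and markers chosen after their values were seen. The genes and lists were chosen with earlier results of these data known. With 1 array per group no test was made. Precision is limited by the number of arrays. One of the genes nearest to Atp2a2 in its values is not reported here.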

Additional observations from a re-analysis of the deposited data

How the results depend on the processing

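No paired analysis was possible because each condition had 1 array, and for the same reason no replicate could be left out. The direction of a gene's change was kept under all 18 alternatives for Atp2a2, Atp2b1 and Itpr3, and under 17 for Itpr1, Itpr2 and Stim2, which had no value with A above 7. The median change in log2 P/FM over the calcium probes was above 0 under every alternative: 0.20 without background subtraction, 0.12 in the deposited table, 0.90 after loess, 1.03 with processed signals, with the scanner log ratio and with centred arrays, and 3.07 with spike-in scaling. Over all probes it was 0.39 with normexp, 0.0402 with normexp on the reported probes, -0.11 without background subtraction, -0.20 with processed signals, -0.19 with the scanner log ratio, -0.0821 after loess, -0.10 with centred arrays, -1.01 with A above 7 and 1.94 with spike-in scaling. The calcium median in control cells was 0.11 with spike-in scaling and 0.0244 with A above 7. In stressed cells it was 0.0446 with normexp, -0.11 without background subtraction, 0.89 with the scanner log ratio, 0.0777 in the deposited table and without a filter on A, 0.70 with centred arrays and 3.36 with spike-in scaling. Sensitive probes numbered 1 with either normexp and with centred arrays, 2 without background subtraction and with A above 7, 0 with spike-in scaling and 7 without a filter. Inducible units numbered 4 in the deposited table and by coding accession, and 3 with A above 7 and by gene name, where fewer units were counted. With spike-in scaling 5 were resistant. The median change in A was -1.10 with normexp, -0.66 with normexp on the reported probes, 0.39 without background subtraction, 0.47 with processed signals and 0.65 without a filter. It was 0.64 centred on all probes and 1.299 scaled to spike-ins. The falls of Atp2a3 and of the Atp2c1 probe at position 555 became 0.0412 and 0.16 with either normexp. With spike-in scaling they became 1.40 and 1.59, and those of Stim1 and Orai1 0.93 and 1.32. Beyond the construction of each alternative, the causes were not tested. Normexp on the reported probes and the scalings of A were chosen after seeing the data. Dim signals limit 8 of the 26 probes, which give no ratio or only a bound.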
